A study of Mus musculus with 8 samples.

Results

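Mitochondrial ribosomal proteins were compared between embryonic mouse kidneys that lack p53 and wild-type ones. Members were all protein-coding genes whose symbol begins with Mrpl or Mrps followed by a digit, found through the RefSeq accession of each array probe. Of 84 such symbols, 78 are protein-coding, and all 78 were on the array, 49 of the large subunit (Mrpl) and 29 of the small subunit (Mrps). The other 6 are pseudogenes, for which no probe was named. The 78 genes were read by 114 of 41174 non-control probes, and 110 of these probes were tested. No member was lost to the filter on dim probes, since the null and the wild-type RNA gave a signal well above background for each of the 78 genes on all 8 arrays. The comparison took in 12000 genes in all.

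Each array held p53 null kidney RNA in one dye and p53 wild-type kidney RNA in the other, both from C57BL/6 embryos at embryonic day 15.5. The comparison asks which transcripts differ when the tumour suppressor p53 is missing from the developing kidney. Replicate 1 had 4 arrays on slide 1, and replicates 2 and 3 had 2 arrays each on slide 2. In 4 of the 8 arrays the null RNA was in Cy5. The null allele, the number of embryos behind each RNA and the use of littermates are not given in the sources used here. Each value is the log2 of the null signal over the wild-type signal, averaged over both dye orientations within a replicate, so a value above 0 means more signal in null. Errors are SD over the 3 replicates.

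Mitochondrial ribosomes translate the few proteins encoded by mitochondrial DNA, which are all core subunits of the oxidative phosphorylation complexes. Their RNAs come from the mitochondrial genome, but each of their proteins is encoded in the nucleus, made in the cytosol and imported. Part of the proteins descend from bacterial ribosomal proteins and the rest were added in the mitochondrial lineage. In the kidney, oxidative phosphorylation powers the reabsorption of solutes by the tubules, and the day examined here falls within the period in which nephrons form.

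The arrays did not all behave alike. Over the 20865 tested probes, the correlation between replicate 1 and replicate 2 was 0.06 and that between replicate 1 and replicate 3 was −0.15; probes are no replicates of a condition. The wild-type signals of replicates 2 and 3 differed by a median absolute deviation of 0.11 and 0.12 (log2) in Cy3 and Cy5, as little as the wild-type signals of repeat arrays of replicate 1 (0.12 and 0.11). The null signals of replicates 2 and 3 differed by 0.16 and 0.17, and signals on different slides by 0.49 to 0.61. Replicates 2 and 3 may thus carry the same wild-type RNA, so the mean of both, written below as the slide 2 value, is given beside the replicates. Trp53 itself had −1.08, −0.47 and −0.45 in replicates 1, 2 and 3 on its brighter probe (limma, adjusted p = 0.279), and 0.16 on average on its other probe. The Xist signal was well above background in wild type on all 8 arrays and in null only on the 2 arrays of replicate 2, and the Y-linked gene Eif2s3y was above background in null of replicates 1 and 3 (6 arrays) and on 0 wild-type arrays. The part of sex in the members' ratios was not tested. The first array of replicate 1 with null in Cy5 lay apart for sex-linked genes and Trp53 (Xist −0.80 against −2.67 to −3.04 on the other 3 arrays of that replicate). Without that array the members' median was 0.13 over the 77 members that kept a value in each replicate.

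Most mitochondrial ribosomal protein genes had a ratio above 0, by small amounts. The mean ratio was above 0 for 64 of 78 genes and below 0 for 14, with a median of 0.14 and a range from −0.35 to 0.66. Over all 12000 genes the median was 0.00 and 50.8% lay above 0. By replicate the members' median was 0.05, 0.27 and 0.21, against −0.02, 0.02 and 0.03 for all genes. With 1 value for each slide, the members' median was 0.12 and 62 of 78 (79.5%) lay above 0, against 48.7% of all genes. Median centring in place of loess moved the median of all genes to 0.15 and that of the members to 0.39, a gap of 0.24. In that setting 75 of 78 members (96.2%) lay above 0, against 75.5% of all genes.

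No member passed the test over all probes, and neither did any other gene (limma over 3 replicates with Benjamini-Hochberg adjustment, 0 of 12000 genes, 0%). An unadjusted p under 0.05 from limma with a ratio above 0 was reached by 18 of 78 members (23.1%), against 9.23% of all genes. The same p with a ratio below 0 was reached by 2 members (2.56%), against 8.92% of all genes. The 20 members with such a p became 55 without replicate 1, 0 without replicate 2 and 2 without replicate 3. Without replicate 1, 60.1% of all genes passed even the adjusted threshold of limma. The share of all genes at the unadjusted p was not counted in these fits. In a fit of all 8 arrays with replicate as a random effect, Mrpl22 and Mrps31 were called higher (2.56% of members, against 2.35% of all genes) and 0 members lower, against 2.68% of all genes. In both directions together, 2.56% of members and 5.03% of all genes were called in that fit.

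The sign counts of the members can be set beside those of all genes. All 3 replicates had a ratio above 0 for 34 members (43.6%), against 20.4% of all genes, and a ratio below 0 for 8 members (10.3%), against 19.7% of all genes. In replicate 1 alone, 48 members (61.5%) had a ratio above 0, against 46.1% of genes. On the slide 2 mean, 60 members (76.9%) lay above 0, against 53.8% of genes. Both were above 0 for 40 members (51.3%), against 23.6% of genes. Under median centring 19 members were above 0 in all 3 replicates and 1 below, and without replicate 1 it was 54 and 13 in both of the others. The share of all genes with 1 sign in every replicate was not counted in these settings. By mean ratio, 75.5% of all genes lay above 0 under median centring and 53.8% without replicate 1. These counts describe the list and were not tested.

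**Figure D1:**
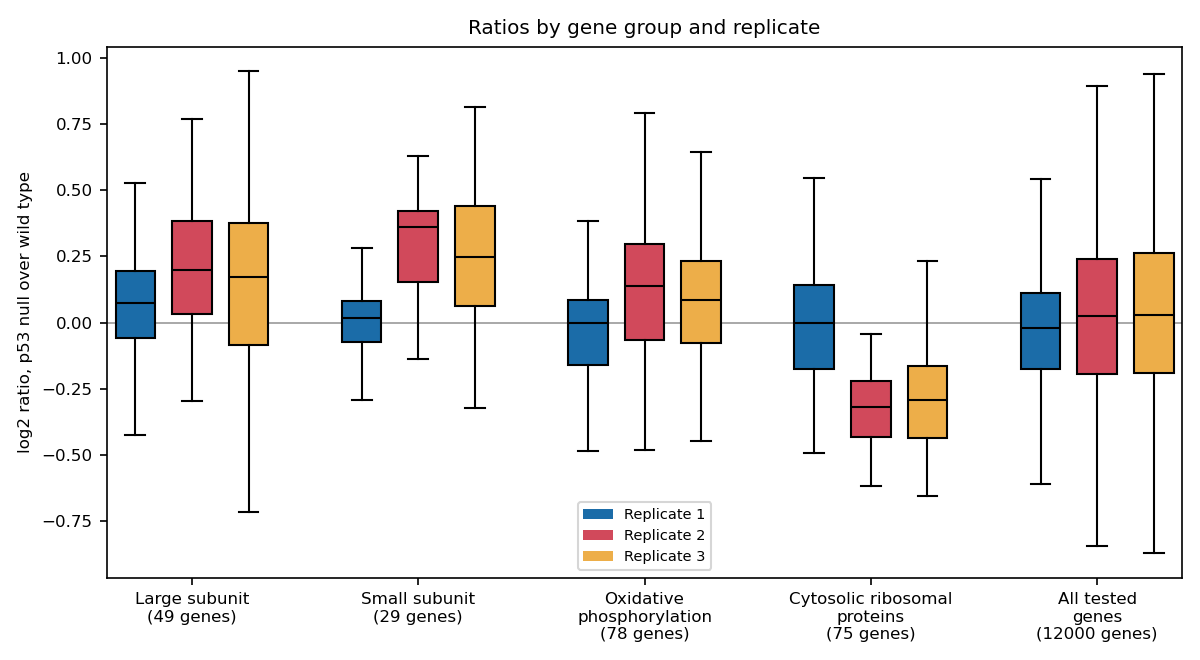
Box plots of log2 ratios (null over wild type, vertical axis) by gene group and replicate; boxes span the quartiles, the line is the median and whiskers reach 1.5 times the box length, with points beyond not drawn. The small subunit boxes of replicates 2 and 3 sit highest (medians 0.36 and 0.25). The cytosolic ribosomal proteins sit below 0 in these replicates (medians −0.32 and −0.29). Under median centring their median over replicates turned to 0.10, still below the 0.15 of all genes.

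Promoter sequences were looked at because 64 of the 78 members had a mean ratio above 0. RefSeq windows (build GRCm38.p6) from 250 bases before to 50 after the annotated start were present for 69 of 78 members. ETS factors such as GABP, NRF1 and YY1 are known regulators of nuclear genes for mitochondrial proteins. The ETS motif CCGGAAG, on either strand, was in the window of 26 of 69 members (37.7%), against 9.93% of all 27025 genes with a window and 18.9% of tested genes with one. The NRF1 motif GCGCATGC was in 8 members (11.6%), against 3.05% of all genes and 5.68% of tested genes. YY1, searched as AAGATGGCG, was in 8 members (11.6%), against 1.64% and 3.24%. The E-box CACGTG was in 5 (7.25%), against 8.09% and 11.6%. Matches of different motifs overlapped in 0 places in the members, and a match describes letters in the window, not binding.

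The promoters of related lists were searched as well. Among cytosolic ribosomal proteins, 23 of 56 windows (41.1%) held the ETS motif, 3 (5.36%) NRF1 and 3 (5.36%) YY1. The shares over tested genes were 18.9%, 5.68% and 3.24%. Oxidative phosphorylation genes held ETS in 17 of 64 windows (26.6%), NRF1 in 9 (14.1%) and YY1 in 7 (10.9%). Members with the ETS motif had a median of 0.06, 0.36 and 0.27 in replicates 1, 2 and 3, and the 43 without it had 0.05, 0.21 and 0.18. The motif was in 23 of 55 members with a mean above 0 (41.8%). It was also in 3 of 14 with a mean below 0 (21.4%), namely Mrpl34, Mrpl53 and Mrps16. NRF1 motifs were in 7 of 43 large subunit windows and 1 of 26 small subunit windows. Members with it had a median of 0.07, 0.13 and 0.10, and the 61 without it 0.03, 0.32 and 0.23. The 8 members with YY1 had 0.00, 0.33 and 0.465, and those without it 0.05, 0.28 and 0.18. The 5 with the E-box had 0.10, 0.42 and 0.47, and those without it 0.05, 0.25 and 0.18. These differences were not tested.

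**Figure D2:**
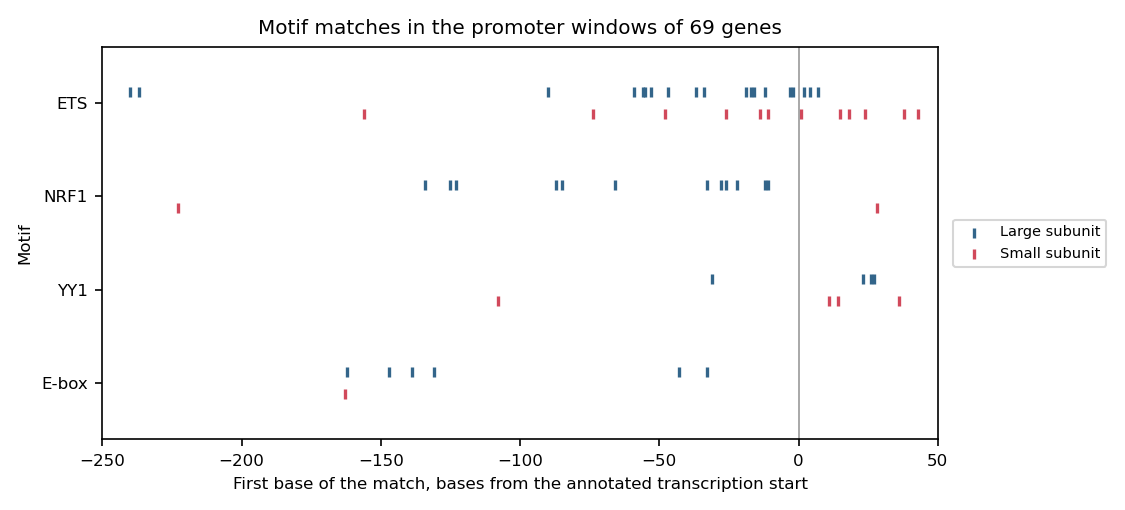
Position of each motif match (first base, in bases from the annotated transcription start at 0) in the windows of 69 members, by motif and subunit. Of 31 ETS matches, 28 lie within 100 bases of the start, and NRF1 matches are mostly in large subunit windows.

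The bases just before the start are shown for selected genes whose brightest probe was above 0 in all 3 replicates. The first 3 hold a motif and the next 2 none. Capitals mark the motifs ETS and NRF1, and each is written on the strand of its gene. Mrpl22 at chr11:58171564-58171663 (plus strand) has the ETS match starting 53 and the NRF1 match starting 33 bases before the start. Mrpl3 is at chr9:105053168-105053267 (plus strand) and Mrps22 at chr9:98601680-98601779 (minus strand), with matches starting 19 and 11 bases before the start. Mrpl16 is at chr19:11770315-11770414 and Mrps31 at chr8:22411240-22411339, both on the plus strand.
Mrpl22: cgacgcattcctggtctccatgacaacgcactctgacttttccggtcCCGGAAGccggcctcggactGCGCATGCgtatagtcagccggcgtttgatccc
Mrpl3: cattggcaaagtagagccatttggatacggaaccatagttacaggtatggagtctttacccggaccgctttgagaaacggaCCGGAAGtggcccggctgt
Mrps22: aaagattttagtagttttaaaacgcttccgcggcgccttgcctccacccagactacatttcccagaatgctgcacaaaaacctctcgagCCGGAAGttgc
Mrpl16: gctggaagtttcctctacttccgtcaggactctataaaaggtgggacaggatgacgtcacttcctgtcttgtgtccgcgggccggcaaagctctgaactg
Mrps31: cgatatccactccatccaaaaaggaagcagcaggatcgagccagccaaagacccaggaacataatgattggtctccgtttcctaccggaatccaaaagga

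Mrpl16 and Mrps31, with replicate values between 0.32 and 0.37, had none of the 4 motifs in the whole window.

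Among the large subunit genes, Mrpl22 encodes the homologue of bacterial L22, which lines the tunnel through which the new peptide leaves. With the ETS and NRF1 motifs in its promoter, it had 0.31, 0.57 and 0.48 in replicates 1, 2 and 3 (0.45 ± 0.13; limma, adjusted p = 0.279) and lay above 0 on all 8 arrays, from 0.28 to 0.60. Mrpl16, whose bacterial homologue sits beside the site where tRNAs enter, had 0.34, 0.34 and 0.37 (0.35 ± 0.02). Its 8 arrays ran from 0.20 to 0.54, so the arrays differed more than the replicate means did. Mrpl18, a homologue of a bacterial 5S RNA binding protein, had 0.33, 0.39 and 0.35 (0.36 ± 0.03), and its 3 tested probes had means from 0.28 to 0.37. Mrpl16 and Mrpl18 had ratios of like size on both slides, whereas Mrpl22 had 0.31 on slide 1 and 0.53 on slide 2.

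Mrpl2 and Mrpl3 encode homologues of bacterial core proteins that reach toward the catalytic centre, and mutations of human MRPL3 cause a combined oxidative phosphorylation deficiency. Mrpl2 had 0.22, 0.34 and 0.45 (0.34 ± 0.11). Mrpl3 had 0.15, 0.38 and 0.34 (0.29 ± 0.12), with 3 probes from 0.21 to 0.29 on average. Its 2 dimmer probes were below 0 in replicate 1, at −0.14 and −0.12, so its single sign rests on the brightest probe. Mrpl51, a mitochondria-specific protein, had 0.26, 0.33 and 0.18 (0.25 ± 0.07). Mrpl35 had the smallest spread of all members, with 0.19, 0.16 and 0.18 (0.18 ± 0.02), but with null in Cy3 alone its mean was −0.02. All of these had an adjusted p from limma between 0.279 and 0.298.

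In other large subunit genes the ratio differed strongly between the slides. Mrpl41, a mitochondria-specific protein also reported to bind Bcl-2, had the highest mean of all members, with −0.02, 1.06 and 0.95 in the replicates (0.66 ± 0.59; limma, adjusted p = 0.292). On slide 1 its 4 arrays lay between −0.09 and 0.04, and on slide 2 between 0.86 and 1.11, so the slides did not overlap. Mrpl20, whose bacterial homologue joins the large subunit early in assembly, had 0.10, 0.77 and 0.69 (0.52 ± 0.37). Mrpl46 had 0.03, 0.63 and 0.62 (0.43 ± 0.35), and Mrpl58, a peptidyl-tRNA hydrolase built into the large subunit, had −0.05, 0.46 and 0.48 (0.30 ± 0.30). Mrpl36 and Mrpl4 had opposite signs on the slides. Mrpl36 had −0.35 in replicate 1 and 0.60 and 0.50 in replicates 2 and 3 (0.25 ± 0.52), and Mrpl4 had −0.42, 0.31 and 0.48 (0.12 ± 0.48). With 1 value for each slide the mean of Mrpl4 was −0.01.

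In all, 10 large subunit genes had a mean below 0. Mrpl14, a protein of the face that meets the small subunit, had −0.24, −0.22 and −0.26 (−0.24 ± 0.02; limma, adjusted p = 0.279), was below 0 on all 8 arrays, and had 0.05 under median centring, below the 0.15 of all genes. Mrpl30 had −0.28, −0.14 and −0.17 (−0.20 ± 0.07). Mrpl44, which has a ribonuclease III fold and is mutated in a human cardiomyopathy, had −0.11, −0.18 and −0.27 (−0.18 ± 0.08). Mrpl34 and Mrpl53 had −0.12 ± 0.12 and −0.14 ± 0.09. Mrpl44, Mrpl34 and Mrpl53 also had values above 0 under median centring, at 0.05, 0.09 and 0.14. Mrpl45, which anchors the ribosome at the inner membrane, had the lowest mean, with 0.24, −0.58 and −0.72 (−0.35 ± 0.52) and −0.20 on average on its other probe. Mrpl24 had 0.08, −0.58 and −0.55 (−0.35 ± 0.37), and Mrpl23 had 0.03, −0.29 and −0.38 (−0.21 ± 0.22) but 0.08 under median centring. The last 3 were above 0 on slide 1 and below 0 on slide 2.

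Mrpl22, Mrpl23, Mrpl24 and Mrpl45 lie around the exit of the peptide tunnel, with Mrpl17 and Mrpl47. The median of these 6 genes was 0.09, −0.09 and −0.21 in the 3 replicates, with 3 means above 0 and 3 below. Under median centring 4 lay above 0, with a median of 0.14 against 0.15 for all genes. The stalk that recruits translation factors is made of Mrpl12 on a base of Mrpl10 and Mrpl11, with Mrpl53 and Mrpl54 nearby. Mrpl12 had 0.00, 0.37 and 0.45 (0.27 ± 0.24), and Mrpl11 had 0.08, 0.13 and 0.15 (0.12 ± 0.04) but 0.00 with null in Cy5 alone. The 5 stalk genes had a median of 0.06, with 3 above 0, and 2 above 0 with null in Cy5 alone.

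**Figure D3:**
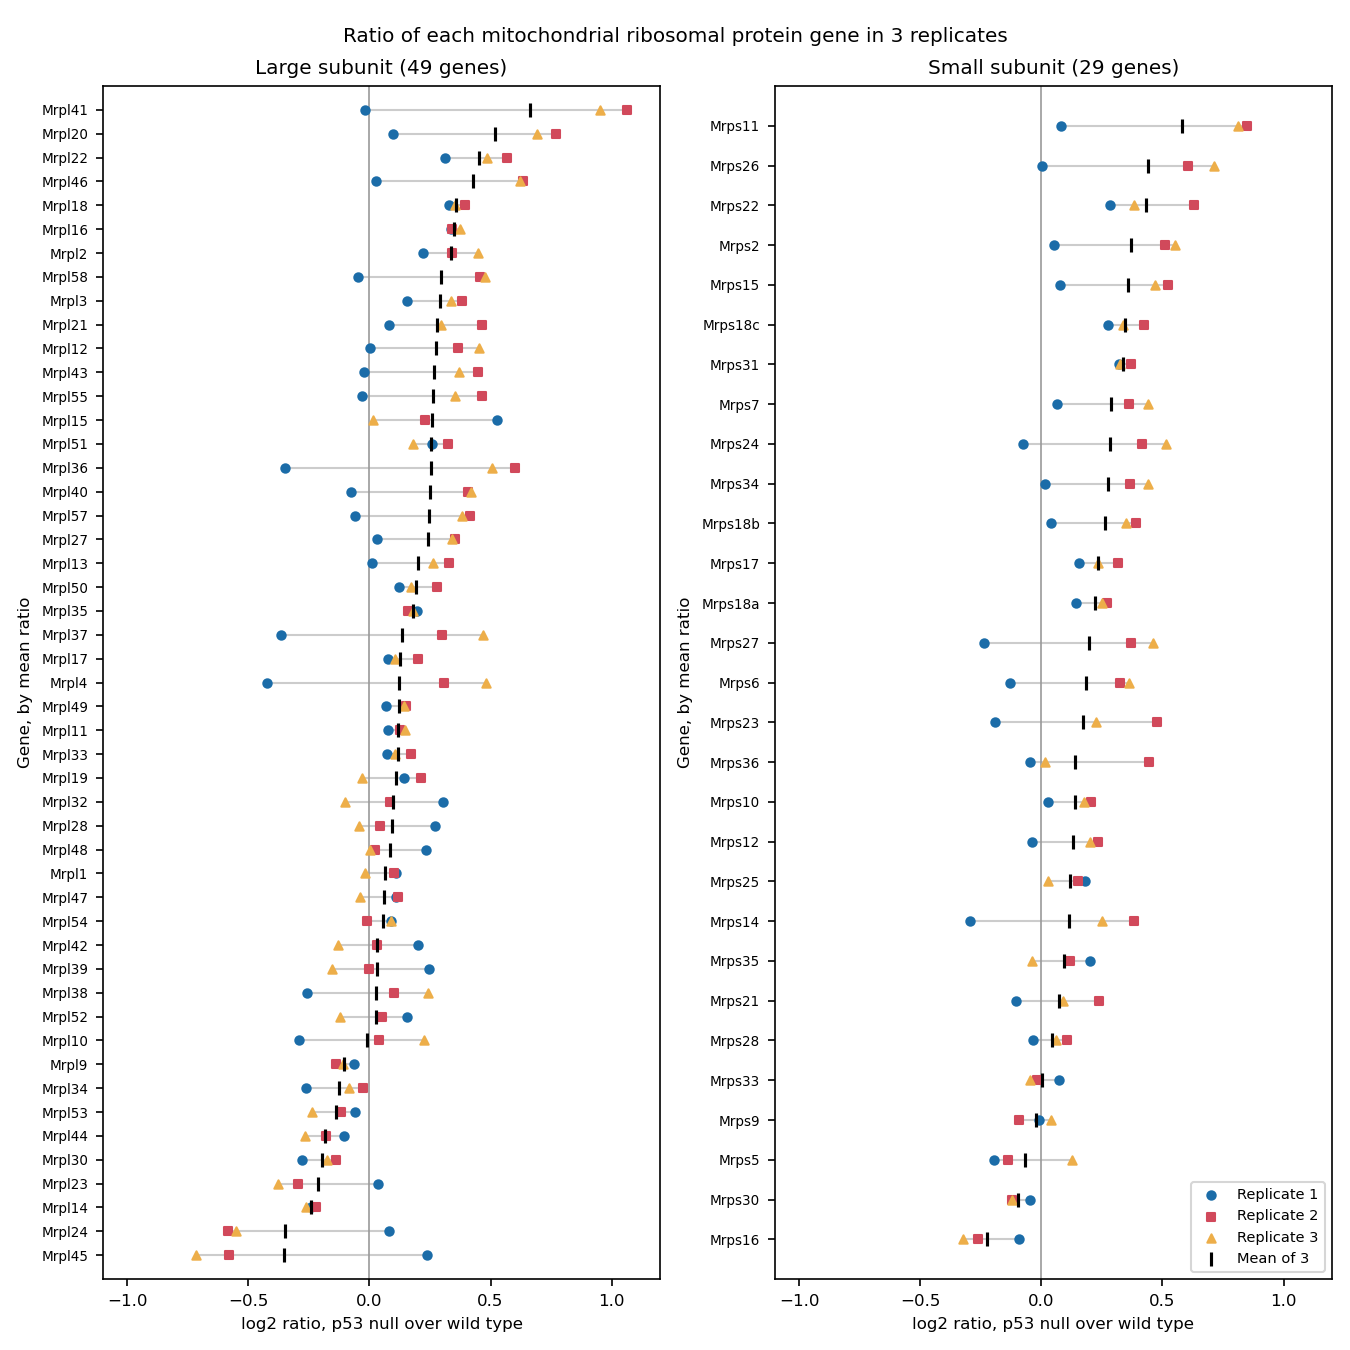
Log2 ratio of each member gene in replicates 1, 2 and 3 (symbols, horizontal axis) with the mean of the 3 (black bar), ordered by mean within the large (left) and small (right) subunit. Of the 78 means, 64 lie right of 0, and genes such as Mrpl41 and Mrpl45 show replicate 1 far from replicates 2 and 3, while Mrpl16, Mrpl14 and Mrps31 show all 3 close together.

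In the small subunit, 25 of 29 genes had a mean above 0. Mrps31, a mitochondria-specific protein, had 0.32, 0.37 and 0.32 (0.34 ± 0.03; limma, adjusted p = 0.279), with arrays between 0.23 and 0.41 and no array below 0. Mrps22, mutated in a human disease of heart and kidney tubule, had 0.28, 0.63 and 0.38 (0.43 ± 0.18), and it depended on dye, with 0.66 with null in Cy5 and 0.20 with null in Cy3. Mrps18c, one of 3 mammalian relatives of bacterial S18, had 0.28, 0.42 and 0.34 (0.35 ± 0.07), with 0.62 and 0.07 in the same dye orientations. Its relatives Mrps18a and Mrps18b had 0.22 ± 0.07 and 0.26 ± 0.19. Mrps17 had 0.16, 0.32 and 0.23 (0.24 ± 0.08). Mrps31 was thus the most even of these genes over replicates and dyes.

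Mrps11, on the platform of the small subunit, had the highest small subunit mean, with 0.08, 0.85 and 0.81 (0.58 ± 0.43; limma, adjusted p = 0.281). Mrps26 had 0.00, 0.61 and 0.71 (0.44 ± 0.38). For both genes the 4 arrays of slide 1 lay below the 4 arrays of slide 2, with no overlap. Below 0 were Mrps16, mutated in a human combined oxidative phosphorylation deficiency, at −0.09, −0.26 and −0.32 (−0.23 ± 0.12), and Mrps30 at −0.05, −0.12 and −0.12 (−0.10 ± 0.04). Under median centring, where the median of all genes was 0.15, Mrps16 and Mrps30 had 0.06 and 0.16. Mrps36, now known as a component of the 2-oxoglutarate dehydrogenase complex and not of the ribosome, had −0.04, 0.45 and 0.01 (0.14 ± 0.27).

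The subunits differed by less than the spread between replicates. The large subunit had medians of 0.08, 0.20 and 0.17 in replicates 1, 2 and 3, and the small subunit had 0.02, 0.36 and 0.25. The large minus small difference was 0.06, −0.16 and −0.08 (−0.06 ± 0.11, n = 3), so its sign was not shared. A sign permutation over 3 replicates cannot go below p = 0.25. Structures place Mrps30 and Mrps18a in the large subunit, and with these moved and Mrps36 left out the difference was −0.08. By origin, the 10 mitochondria-specific small subunit genes all had a mean above 0 (median 0.23), though Mrps33 only at 0.0033. With the mean of all probes 9 of 10 lay above 0, and with null in Cy3 alone 8 of 10. The 16 small subunit genes with bacterial homologues had a median of 0.16 with 13 above 0. In the large subunit, 30 genes with bacterial homologues and 21 mitochondria-specific genes (Mrps30 and Mrps18a among them) both had a median of 0.12.

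Replicate 1 was on one slide and replicates 2 and 3 on the other. Replicate 1 and the slide 2 mean had the same sign for 50 of 78 members (64.1%), against 47.2% of all genes. Another 20 members (25.6%, against 30.2% of all genes) were below 0 in replicate 1 and above 0 on slide 2, and 8 (10.3%, against 22.6%) were the other way round. Without replicate 1, limma called 45 members higher and 7 lower, but 60.1% of all genes were called in that fit, whose spread came from replicates that may share a wild-type RNA. With slide as a fixed block 34 members were called higher and 8 lower, with 43.2% of all genes called. On 1 value for each slide, 0 members and 0 genes were called.

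**Figure D4:**
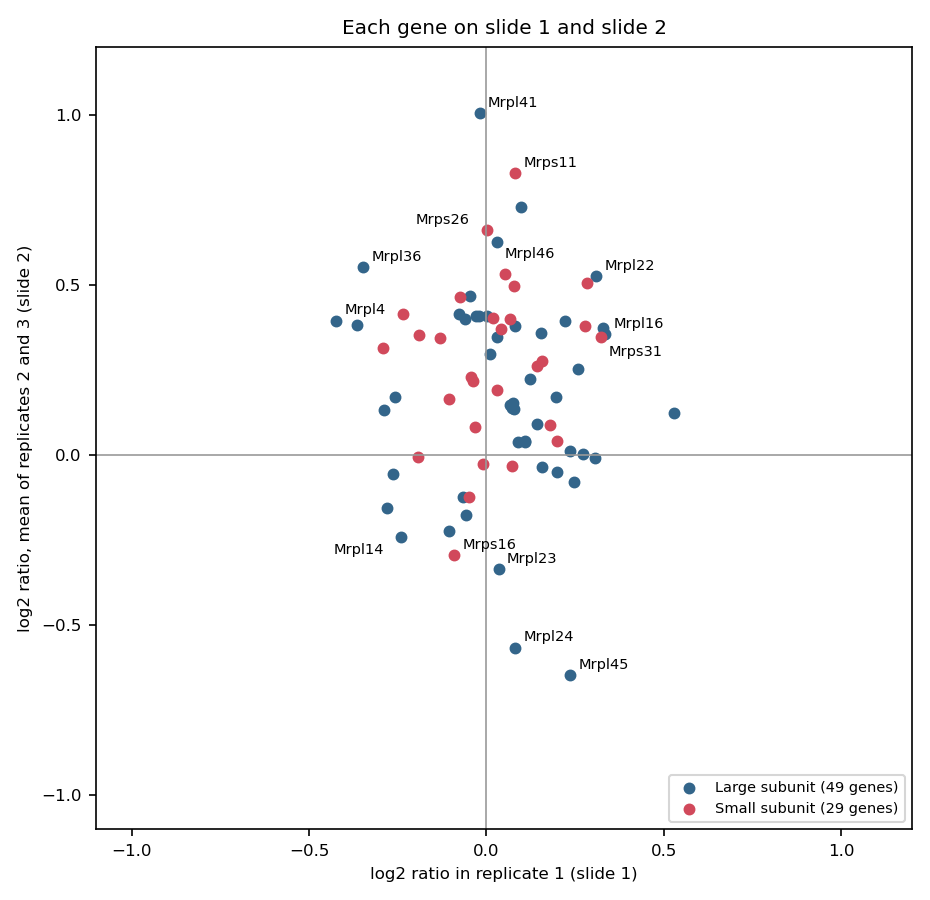
Log2 ratio of the 78 members in replicate 1 (horizontal axis) and on the mean of replicates 2 and 3 (vertical axis), coloured by subunit. Both values are above 0 for 40 genes, among them Mrpl22, Mrpl16 and Mrps31, and Mrpl41, Mrpl45 and Mrpl24 lie near 0 or right of it on slide 1 and far from 0 on slide 2.

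Other values moved with slide as well. The median of erythroid markers was −0.40 for replicate 1 against 1.41 for slide 2 (4 of 6 listed genes tested). Liver markers had −0.06 and 0.89 (3 of 6 tested), macrophage markers 0.24 and 0.61 (5 of 6), adrenal markers 0.07 and 0.99 (2 of 6) and proximal tubule markers −0.07 and 0.45 (6 of 8). Of 20 glycolysis and hypoxia genes, all 20 had a mean below 0, with −0.25 in replicate 1 and −1.71 on slide 2. Kidney markers, of which 9 of 10 were tested, had −0.05 and −0.09. The part of these differences in the members' ratios was not tested. In RNA of a whole organ, fewer cells of a type and less RNA per cell cannot be told apart.

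Mitoribosome proteins that carry other names had a median of −0.15 over 5 tested genes, but 0.08 in replicate 1, with 4 of 5 above 0. Under median centring it was 0.14, against 0.15 for all genes, with all 5 above 0. Of the 5, Ptcd3 had 0.04, 0.40 and 0.36 (0.27 ± 0.20; limma, adjusted p = 0.299) and the other 4 had means below 0. Dap3, first described as a death-associated protein, had 0.10, −0.27 and −0.36 (−0.18 ± 0.25), and Gadd45gip1 had −0.16, −0.18 and −0.14 (−0.16 ± 0.02) on its brighter probe and 0.13 on average on the other. Dap3 and Gadd45gip1 had 0.10 and 0.12 under median centring, below the 0.15 of all genes.

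Translation factors, tRNA synthetases and assembly genes of the mitochondrion were mixed in sign, and 0 of them passed limma's test. Of 12 translation factors, 6 had a mean above 0 and 6 below (median 0.01). Mtfmt, which formylates the initiator tRNA, had 0.10, 0.24 and 0.18, while Mrrf, the ribosome recycling factor, had 0.07, −0.62 and −0.68 and Gfm2, its partner in recycling, had −0.10, −0.19 and −0.28. Among 18 tRNA synthetases and related enzymes 12 means were above 0 (median 0.07), but 4 of 18 were above 0 in replicate 1, and 8 of 18 without replicate 3 (median −0.03) and 9 of 18 with 1 value for each slide. The high genes included Qrsl1, a subunit of the glutamyl-tRNA amidotransferase, at −0.05, 0.86 and 0.95, Mars2 at −0.01, 0.66 and 0.65 and Rars2 at 0.06, 0.50 and 0.41. The lowest means, named after their values were seen, were those of Lars2, the leucyl-tRNA synthetase, at −2.21, −0.45 and 0.09, and Wars2, the tryptophanyl-tRNA synthetase, at 0.02, −0.62 and −0.61, whose other probe had 0.13 on average. Of 23 ribosome assembly genes 11 were above 0 (median −0.02), but 21 under median centring (median 0.14, against 0.15 for all genes). The ribosomal RNA methyltransferase Mrm3 had −0.12 in replicate 1 and a slide 2 value of 1.06, the pseudouridine synthase Trub2 had −0.04, 0.62 and 0.79, and the endonuclease Ybey had −0.01, 0.47 and 0.40. These 3 were near 0 on slide 1 and high on slide 2.

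Genes that copy mitochondrial DNA and make or process its RNA had 15 of 19 means above 0, a median of 0.16 and replicate medians of 0.04, 0.18 and 0.15. Pnpt1, a polynucleotide phosphorylase, had 0.26, 0.40 and 0.32, with probes from 0.13 to 0.33. Fastkd3 and Fastkd5, RNA-binding proteins of the mitochondrion, had 0.12, 0.59 and 0.60, and 0.06, 1.07 and 1.06, but another probe of Fastkd5 had 0.14 on average. The mitochondrial RNA polymerase gene Polrmt had 0.19, 0.18 and 0.11, and Tfam, which packages mitochondrial DNA, had 0.08, 0.23 and 0.16; these 2 genes were chosen after their values were seen. With null in Cy3 alone the mean of Polrmt was −0.02. Regulators of mitochondrial biogenesis had a median of −0.09 with 4 of 10 means above 0. With the mean of all probes it was −0.05 with 3 of 10. Probes differed in sign for Nrf1 (−0.25 to 0.20), Gabpb1, Gabpa and Myc. Under median centring the median of the regulators was 0.10 with 7 of 10, below the 0.15 of all genes, of which 75.5% lay above 0. With null in Cy5 alone it was 0.05 with 6 of 10, against 0.02 for all genes. The coactivators differed, with Ppargc1b at −0.36, −0.37 and −0.14, Ppargc1a at 0.11, −0.75 and −0.60, and Pprc1 at −0.20, 1.14 and 1.21.

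**Figure D5:**
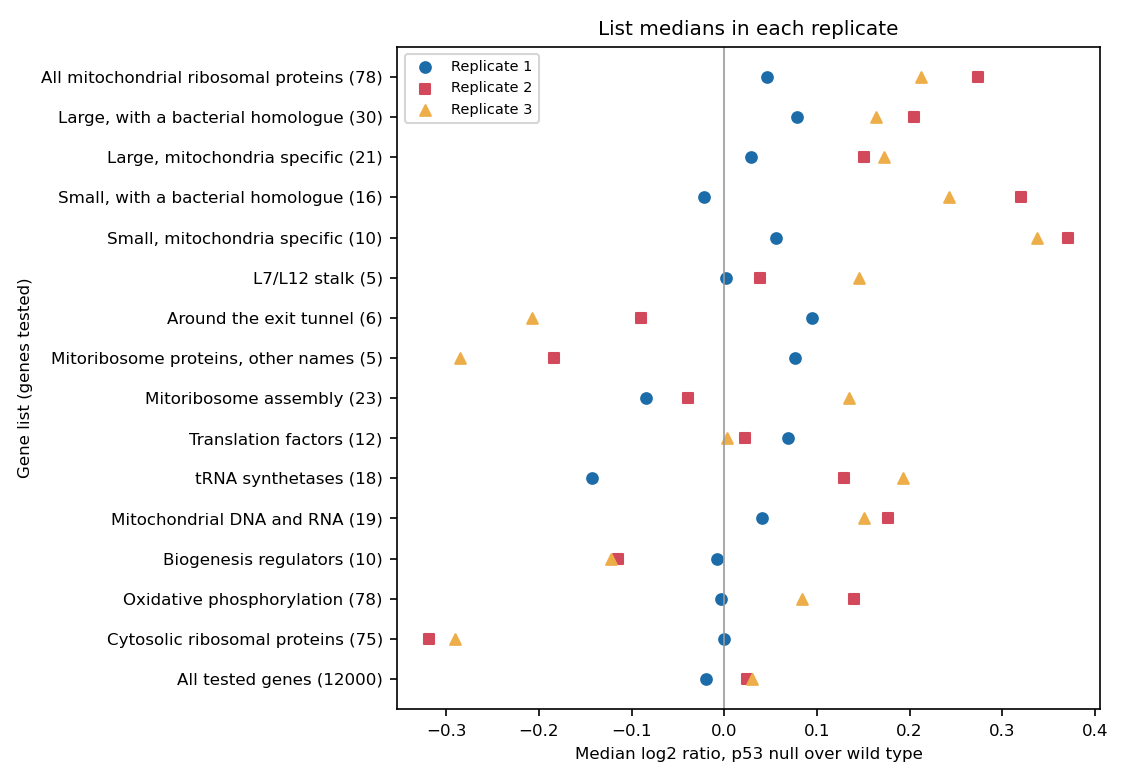
Median log2 ratio of each gene list in replicates 1, 2 and 3 (symbols, horizontal axis), with the number of genes tested in brackets. Mitochondrial ribosomal proteins lie at 0.05, 0.27 and 0.21, and cytosolic ribosomal proteins at 0.00, −0.32 and −0.29. The latter turned to a median of 0.10 over replicates under median centring, still below the 0.15 of all genes.

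Cytosolic ribosomal proteins, which make up the ribosome of the cytoplasm, mostly lay on the other side of 0 on slide 2. In replicate 1, 37 genes were above 0 and 38 below, and on the slide 2 mean 2 were above and 73 below. Of 75 genes, 71 had a mean below 0 and 4 above, with a median of −0.20, but 59 of 75 lay above 0 under median centring, with a median of 0.10 that was still below the 0.15 of all genes. With null in Cy5 alone their median was −0.04 and with null in Cy3 alone −0.36. The median of the mitochondrial minus that of the cytosolic proteins was 0.05, 0.59 and 0.50 in replicates 1, 2 and 3 (0.38 ± 0.29). Subunits of oxidative phosphorylation, which the mitochondrial ribosome serves, had a median of 0.05 with 48 of 78 genes above 0. The mitochondrial ribosomal median exceeded theirs by 0.05, 0.13 and 0.13 (0.10 ± 0.05). None of these differences between lists was tested across genes.

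Head-to-head neighbours were common. A window on the opposite strand overlapped that of 24 of 69 members (34.8%), against 11.9% of all genes with a window and 17.9% of tested genes with one. The share was 31.2% for oxidative phosphorylation genes and 21.4% for cytosolic ribosomal proteins. Mrps11 and Mrpl46 start 41 bases apart on opposite strands, so 1 gene of each subunit shares the stretch at chr7:78783090-78783130, shown on the strand of Mrps11. Both had the larger ratio on slide 2, with 0.83 for Mrps11 and 0.63 for Mrpl46, and 0.08 and 0.03 on slide 1. Mrpl14 and Tmem63b, a membrane channel gene, start 130 bases apart around chr17:45686219-45686348, shown on the strand of Mrpl14. Tmem63b had −0.19, −0.29 and −0.21 (−0.23 ± 0.05), beside −0.24, −0.22 and −0.26 for Mrpl14. Neither stretch holds 1 of the 4 motifs.
Mrps11 and Mrpl46: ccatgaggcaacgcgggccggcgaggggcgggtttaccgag
Mrpl14 and Tmem63b: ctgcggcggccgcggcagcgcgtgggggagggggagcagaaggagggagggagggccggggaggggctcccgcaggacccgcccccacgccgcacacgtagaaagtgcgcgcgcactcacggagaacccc

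Of 18 such pairs with both genes tested, 14 had means of the same sign. How often such pairs share a sign over all genes was not counted. Some same-sign neighbours lay near 0, with Rab6a, Twnk, Eme1, Tcp1, Helq and Gga3 between 0.0047 and 0.058. The 4 pairs of opposite sign were Mrpl2 with Klc4, Mrpl30 with Mitd1, Mrpl49 with Fau and Mrps27 with Ptcd2. Mrpl49 had 0.12 ± 0.05 while Fau had −0.32 ± 0.48. Mrpl30 had −0.20 ± 0.07 while Mitd1 had 0.19 ± 0.14, whereas Klc4 and Ptcd2, at −0.04 ± 0.37 and −0.06 ± 0.12, lay near 0 and turned to 0.19 and 0.17 under median centring. The likeness of pairs was not tested. Pairs were described after their values were seen.

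Different probes of a gene mostly had the same sign. Several probes were tested for 25 members, and for 3 of them the signs were not the same. Mrpl38 had 0.03 on its brighter probe and −0.05 on the other, Mrps9 had −0.02 and 0.04, and the 3 probes of Mrps33 ran from −0.17 to 0.04. The mean ratios of these 3 genes were within 0.03 of 0.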

How the data were processed

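The authors deposited 8 scanner files with the linear intensity of each spot and its background, and with a log10 ratio of Cy5 over Cy3. Per the file headers the program was Agilent Feature Extraction 10.5.1.1, and per the submitters' processing notes version 6.1. The deposited value table holds the same log10 ratios turned to null over wild type; correlation was 1 on each array. The median spot signal took the place of the mean signal named in the planned design, which is not used here. With limma 3.58.1 (R 4.3.3), background was corrected by normexp (offset 50), each array was normalized by loess with control spots at weight 0, and flagged outlier spots were set to missing. A probe was kept if, in every replicate, 50% or more of the arrays had one genotype well above background (20880 of 41174), and 20865 probes with 3 replicate values were tested. Arrays of a replicate were averaged within and then across dye orientations. The 3 values were fitted against 0 in limma (4.22 degrees of freedom) and p-values adjusted over all tested probes. A gene is its brightest tested probe, named through GRCm38.p6 RefSeq accessions (25097 probes).

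Members and lists were chosen with earlier results of these data known. Named genes were Trp53, members of 1 sign in all replicates and both dyes (up to 12 per direction), the 6 highest and 6 lowest, the 4 largest and 4 smallest spreads, members with probes of differing sign, and 3 genes of each list. On simulated data for this comparison (20865 probes), where 50 probes were changed by each fold, the fit recovered 1 changed by 1.5-fold, 24 by 2-fold, 36 by 4-fold and 42 by 8-fold. It made 3 false calls. Simulated replicates were drawn independently, whereas replicates 2 and 3 of the data correlated at 0.93. The simulated counts therefore do not give the recovery or false calls of this design. The labels call the replicates biological; embryos per RNA are not given in the sources used here. Alternatives were other background corrections, median centring, the deposited ratios, other probe filters and averages, leaving out replicates, slide as a block, and single dye orientations.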

Additional observations from a re-analysis of the deposited data

How the results depend on the processing

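The count of members called was 0 except under 3 alternatives. It was 52 of 78 without replicate 1 (0 without replicate 2 or 3) and 42 with slide as a fixed block. With replicate as a random effect it was 2. The counts of probes called were 11699 (0 without replicate 2 or 3), 8521 and 959. Of all genes, 60.1%, 43.2% and 5.03% were called in these 3 fits. Without replicate 1 and with the slide block the spread comes from replicates 2 and 3, and 1 value per slide gave 0. The members' median stayed above 0 under all 18 alternatives tried for it, between 0.11 and 0.39. Median centring gave 0.39 for all members, 0.38 for the large and 0.40 for the small subunit; null in Cy5 alone gave 0.20 for the large subunit. The large minus small difference stayed between −0.12 and −0.0095. The count of members with an unadjusted limma p under 0.05 ran from 0 to 55 over 18 alternatives (20 as reported) and was within 1.5 times of it in 8. The 55 came without replicate 1, where 60.1% of all genes passed the adjusted threshold. Over 16 alternatives, 19 to 54 members were higher and 1 to 13 lower in every replicate, with 14 within 1.5 times for each count. The shares of all genes with such a p, or with 1 sign in every replicate, were not counted in these alternatives. With 3 simulated replicates drawn independently, unlike those of the data, 1 of 50 simulated 1.5-fold changes was recovered. This does not give the recovery of this design.

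Some single genes changed sign, and the cause was not tested. Under median centring, which moved the median of all genes to 0.15, Mrpl14 had 0.052, Mrpl23 0.076, Mrpl34 0.085, Mrpl44 0.051, Mrpl53 0.14, Mrps9 0.23, Mrps16 0.061, Mrps30 0.16, Dap3 0.10, Gadd45gip1 0.12, Klc4 0.19 and Ptcd2 0.17. With null in Cy5 alone Mrpl4 had −0.057, Mrpl11 −3e-04 and Mrpl38 −0.068. With null in Cy3 alone Mrpl35 had −0.016, Mrps9 0.039, Mrps33 −0.11, Mrps36 −0.016, Polrmt −0.022, Klc4 0.026 and Ptcd2 0.063. With slide as a fixed block, and with 1 value per slide, Mrpl4 had −0.015 and Mrpl38 −0.043. With the mean of all probes Mrpl38 had −0.012, Mrps9 0.0088 and Mrps33 −0.044. Mrps33 had −0.0021 with no background correction and −0.0051 without the first array of replicate 1 (chosen after seeing the data). Leaving out 1 replicate in turn gave ranges of −0.078 to 0.17 for Mrpl38, −0.058 to 0.40 for Mrpl4, −0.015 to 0.23 for Mrps36, −0.051 to 0.015 for Mrps9, −0.031 to 0.028 for Mrps33 and −0.20 to 0.17 for Klc4.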
